A study of Mus musculus with 18 samples.

Results

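The genes described here are 9 enzymes that build the sphingolipids of myelin: Sptlc1, Sptlc2, Elovl1, Elovl7, Cers2, Fa2h, Ugt8a, Gal3st1 and Aspa. They were chosen by name, and a probe set counted for a gene only if the array's annotation gave it that 1 symbol or an older synonym of it. This left 88 probe sets for the 9 genes, out of 20352 gene symbols named on the array, and each gene was given, per array, the median log2 value of its probe sets. All 9 passed the filter on low values, which kept 16281 genes. The arrays measured RNA from C57BL/6 mice, taken from the caudal part of the corpus callosum, the white matter bridge between the hemispheres. The diet held 0.2% cuprizone (CPZ), which chelates copper, destroys oligodendrocytes and so removes myelin. Mice were wild type (WT) or TREM2-/- (KO), lacking a receptor of microglia and other myeloid cells, and both genotypes received CPZ. There were 4 WT and 3 KO arrays of the 6-week stage and 5 WT and 6 KO arrays of the 12-week stage, 18 in all. The labels do not settle whether the stage is an age or a feeding time, and do not say which exons the knockout removes or whether each array is a separate mouse. P-values therefore measure only the spread between these samples, which may be technical. No array of mice on a diet without CPZ was analysed here.

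Galactosylceramide and its sulfated form, sulfatide, are the characteristic glycolipids of the myelin sheath. Their synthesis starts when serine palmitoyltransferase joins serine to a fatty acid, and continues with the addition of a long, often hydroxylated fatty acid to give ceramide, to which galactose and then sulfate are attached in oligodendrocytes. Mice that lack the galactosyltransferase form myelin without these lipids and develop tremor and ataxia. Aspartoacylase, encoded by Aspa, belongs to the set because it splits N-acetylaspartate in oligodendrocytes and releases acetate that can enter lipid synthesis.

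The labels were checked on Trem2. WT arrays averaged a log2 value of 7.29 ± 0.83 (SD, n = 4) at 6 weeks and 7.36 ± 0.48 (SD, n = 5) at 12 weeks. KO arrays averaged 5.80 ± 0.34 (SD, n = 3) and 5.27 ± 0.30 (SD, n = 6). KO arrays lay below all WT arrays at both stages. The difference passed limma's test over all genes at 12 weeks (log2 difference −2.09, adjusted p = 0.00251) and not at 6 weeks (−1.49, adjusted p = 0.247). The tissue was checked on mature oligodendrocyte and myelin markers, 11 of 12 of which were named on the array. Their mean log2 value per array ran from 7.12 to 10.5. Of 4 Schwann cell markers only 2 were named on the array, with mean log2 values per array between 2.76 and 3.95, around the filter's level of 3.41.

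Promoter windows from RefSeq (assembly GRCm38.p6) were held for 8 of the 9 genes, 12 windows in all, and were searched on both strands for 3 short motifs within the 250 bases before each start. Those of Ugt8a and Elovl7, which had the smallest p of the 9 between stages in WT, and of Sptlc1, whose level differed little, are printed from the part that lies outside the annotated gene, 5′ to 3′ on the gene's strand. Capitals mark a GC box (GGGCGG or its reverse complement, CCGCCC) or, in Sptlc1 alone among the 3, a SOX core (ACAAAG or ACAATG). Ugt8a lies at chr3:125938683-125938902 on the minus strand, Elovl7 at chr13:108214154-108214325 on the plus strand and Sptlc1 at chr13:53377418-53377611 on the minus strand.
Ugt8a: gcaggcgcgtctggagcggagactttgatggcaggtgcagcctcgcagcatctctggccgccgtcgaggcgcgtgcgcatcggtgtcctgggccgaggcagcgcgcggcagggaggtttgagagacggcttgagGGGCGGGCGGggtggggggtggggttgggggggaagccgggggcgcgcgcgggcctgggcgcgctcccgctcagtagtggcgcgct
Elovl7: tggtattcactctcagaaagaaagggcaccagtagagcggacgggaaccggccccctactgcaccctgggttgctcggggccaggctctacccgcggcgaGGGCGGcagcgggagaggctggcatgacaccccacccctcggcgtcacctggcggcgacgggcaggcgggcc
Sptlc1: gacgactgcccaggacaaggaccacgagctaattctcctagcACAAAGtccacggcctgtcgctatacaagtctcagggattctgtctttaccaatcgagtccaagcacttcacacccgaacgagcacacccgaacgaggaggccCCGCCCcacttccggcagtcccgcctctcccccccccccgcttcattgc
The Ugt8a stretch holds 2 overlapping GC boxes, and the Elovl7 and Sptlc1 stretches hold 1 each. A GC box was found in 7 of the 12 windows and in 32.7% of all 32851 mouse promoter windows of the table. The SOX core was found in 3 of the 12 windows, belonging to Gal3st1 and Sptlc1, and in 25.2% of all windows. The Gal3st1 windows with a match (chr11:3983386-3983685 and chr11:3983401-3983700) overlap and may hold the same site. The core bound by the myelin gene regulatory factor MYRF (CTGGCAC or CTGGTAC) was in none of the 12 and in 5.93% of all windows. These are letter matches in a short window and describe no binding.

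Between the stages in WT, all 9 genes had a lower mean at 12 weeks than at 6 weeks, by a median log2 difference of −0.88, against 0.01 over all genes tested, of which 48.8% were lower. By these gene values the differences were widest for Elovl7, Aspa, Ugt8a and Fa2h, and close to 0 for Sptlc1 and Sptlc2. None passed the test, limma with Benjamini-Hochberg adjustment over all genes (0 of 9, where 0.0184% of all genes passed). By unadjusted p under 0.05, 5 of the 9 were lower (Ugt8a, Fa2h, Aspa, Elovl7 and Cers2), where 4.51% of all genes were. The groups did not overlap for Ugt8a, Fa2h and Elovl7, all lower at 12 weeks, where 1.31% of all genes were lower without overlap. In these bulk samples fewer oligodendrocytes and less of their RNA per cell cannot be told apart.

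Between the stages in KO, 7 of the 9 genes had a lower mean at 12 weeks and the median difference was −0.49, against 0.02 over all genes, of which 47.8% were lower. No gene of the set passed, where 0.00614% of all genes did, and none had an unadjusted p under 0.05, where 7.49% of all genes did. All 9 pairs of groups overlapped, where 3.91% of all genes did not.

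Between the genotypes at 6 weeks, 7 of the 9 genes had a lower mean in KO, with a median difference of −0.19 against −0.00294 over all genes, of which 50.4% were lower. None passed, where 0.043% of all genes did. Ugt8a alone was below an unadjusted p of 0.05, lower in KO, where 2.17% of all genes were, and alone had groups that did not overlap, where 2.36% were lower in KO without overlap. At 12 weeks 7 of the 9 had a higher mean in KO, the median difference was 0.16 against 0.02 over all genes, of which 47.6% were lower, and Aspa and Elovl7 stood highest. None of the 9 passed, where 0.43% of all genes did. None was below an unadjusted p of 0.05, where 11.1% of all genes were, and all groups overlapped, where 2.46% of all genes did not.

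Whether the stage difference differed between the genotypes was tested as an interaction. The KO stage difference lay above the WT stage difference for all 9 genes, by a median of 0.39 against 0.02 over all genes, and 47.9% of all genes lay below 0. None of the 9 passed, as none of all genes did (0%). Elovl7 had the smallest p (log2 1.95 ± 0.75 (SE), 95% interval 0.38 to 3.52, adjusted p = 0.905) and was the only one of the 9 with an unadjusted p under 0.05, where 5.19% of all genes had one. The 4 comparisons share arrays, so that a low or high group enters more than 1 of them.

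**Figure D1:**
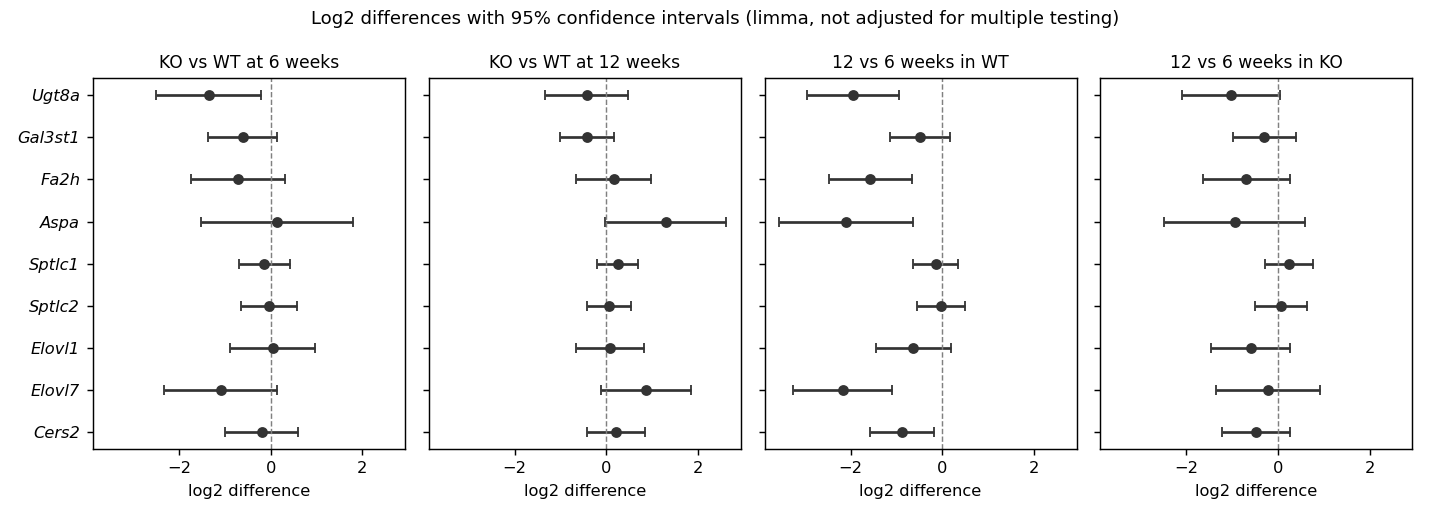
Log2 differences of the 9 genes in the 4 comparisons (x axis, log2 difference) with their unadjusted 95% confidence intervals from limma; a value below 0 means lower in KO, or lower at 12 weeks. In WT the intervals of Ugt8a, Fa2h, Aspa, Elovl7 and Cers2 lie below 0 at 12 against 6 weeks, and at 6 weeks that of Ugt8a does in KO against WT. No gene passed after adjustment.

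**Figure D2:**
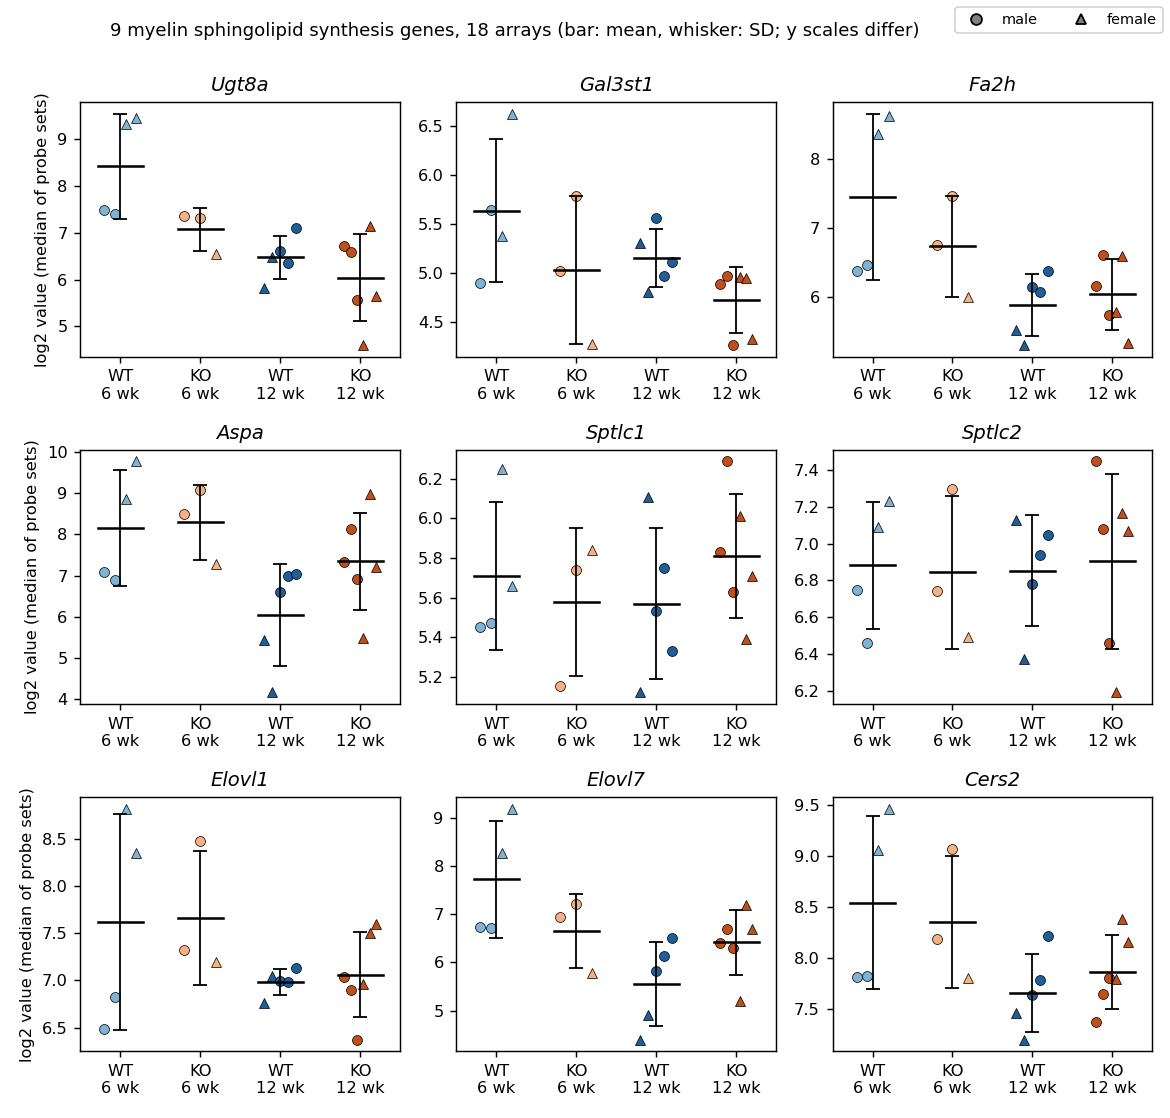
Log2 value of each of the 9 genes in each of the 18 arrays, by genotype and stage (circles male, triangles female; bar, mean; whisker, SD). Replicates 3 and 4 of WT at 6 weeks stand above the others of their group for Ugt8a, Fa2h, Aspa, Elovl1, Elovl7 and Cers2, and the y scales differ between panels.

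Serine palmitoyltransferase makes the first, rate-limiting step, and Sptlc1 and Sptlc2 encode its shared and catalytic subunits. Sptlc1 stood at 5.45, 5.47, 6.25 and 5.66 in the 4 WT arrays of 6 weeks, at 5.15, 5.74 and 5.84 in the 3 KO arrays, at 5.12, 6.11, 5.53, 5.75 and 5.33 in the 5 WT arrays of 12 weeks, and between 5.39 and 6.29 with a median of 5.77 in the 6 KO arrays. All 4 groups overlapped. The WT stage difference of Sptlc1 was −0.14 ± 0.24 (SE), with an interval from −0.63 to 0.35. By its gene value Sptlc2 was as even. Its group means were 6.88 ± 0.35 (SD, n = 4), 6.85 ± 0.42 (SD, n = 3), 6.85 ± 0.30 (SD, n = 5) and 6.90 ± 0.47 (SD, n = 6) in WT and KO at 6 weeks and WT and KO at 12 weeks. Its WT stage difference was −0.03, with an interval from −0.56 to 0.50. This value depended on how probe sets were summarized. Singly they ran from −1.74 to 0.73, 10 of 13 below 0, and the brightest gave −0.48. The genotype differences of both genes lay between −0.13 and 0.24.

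Elovl1 and Elovl7 lengthen fatty acids, and Cers2 joins very long fatty acids to the sphingoid base to form the ceramides of myelin. Elovl7 stood at 6.74, 6.71, 8.27 and 9.20 in WT at 6 weeks and at 4.39, 4.91, 5.83, 6.14 and 6.50 in WT at 12 weeks. The highest array of 12 weeks lay below the lowest of 6 weeks, and the 2 top arrays of 6 weeks were replicates 3 and 4. The log2 difference was −2.17 ± 0.52 (SE), with an interval from −3.26 to −1.09, which is 4.51-fold lower, and did not pass (adjusted p = 0.224). In KO, Elovl7 stood at 6.95, 7.22 and 5.77 at 6 weeks and between 5.20 and 7.20 with a median of 6.55 at 12 weeks, so the stages overlapped (−0.23, interval −1.37 to 0.91). Against WT, KO had a lower mean at 6 weeks (−1.08 ± 0.59 (SE), adjusted p = 0.940) and a higher mean at 12 weeks (0.86 ± 0.47 (SE), adjusted p = 0.506), and neither passed.

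Elovl1 stood at 6.48, 6.82, 8.82 and 8.35 in WT at 6 weeks, and at 6.76 to 7.13 in the 5 WT arrays of 12 weeks, whose SD was 0.14. The 2 high arrays of 6 weeks carried its mean difference of −0.63 ± 0.39 (SE), which did not pass (adjusted p = 0.669). KO arrays had Elovl1 values of 7.32, 8.48 and 7.19 at 6 weeks and between 6.37 and 7.60 with a median of 7.0 at 12 weeks, and overlapped WT at both stages (log2 differences of 0.05 and 0.08).
Cers2 stood at 7.82, 7.83, 9.06 and 9.47 in WT at 6 weeks and at 7.46, 7.20, 7.64, 7.79 and 8.22 in WT at 12 weeks, a difference of −0.88 ± 0.33 (SE), 1.84-fold lower, that did not pass (adjusted p = 0.501). Only replicate 5 of 12 weeks reached into the 6-week range. KO values of Cers2 were 8.19, 9.07 and 7.81 at 6 weeks and between 7.38 and 8.39 with a median of 7.81 at 12 weeks, and differed from WT by −0.19 and 0.21.

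Fa2h encodes the hydroxylase that makes the hydroxylated fatty acids of myelin galactolipids. It stood at 6.38, 6.46, 8.35 and 8.62 in WT at 6 weeks and at 5.52, 5.31, 6.14, 6.07 and 6.38 in WT at 12 weeks. The highest 12-week array was just below the lowest 6-week array. The difference was −1.57 ± 0.43 (SE), with an interval from −2.47 to −0.67, 2.97-fold lower, and did not pass (adjusted p = 0.285). In KO, Fa2h stood at 6.75, 7.46 and 6.00 at 6 weeks and between 5.34 and 6.61 with a median of 5.97 at 12 weeks, a difference of −0.70. KO differed from WT by −0.72 ± 0.49 (SE) at 6 weeks and by 0.16 ± 0.39 (SE) at 12 weeks, and overlapped it at both stages.

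Ugt8a encodes the galactosyltransferase that turns ceramide into galactosylceramide. Its values were 7.50, 7.41, 9.33 and 9.47 in WT and 7.37, 7.31 and 6.55 in KO at 6 weeks. All KO arrays lay below all WT arrays, though the highest KO array (7.37) and the lowest WT array (7.41) were close, and replicates 1 and 2 of WT lay close to KO. KO was lower on average by a log2 difference of −1.35 ± 0.55 (SE), with an interval from −2.50 to −0.20 (unadjusted p = 0.0234 from limma's fit), and did not pass (adjusted p = 0.83). WT arrays of 12 weeks stood at 5.83, 6.48, 6.61, 6.35 and 7.11, all below the WT arrays of 6 weeks, a difference of −1.95 ± 0.48 (SE), 3.87-fold lower, that did not pass (adjusted p = 0.249). KO arrays of 12 weeks lay between 4.60 and 7.14 with a median of 6.12, and the genotypes overlapped there (−0.43 ± 0.44 (SE), adjusted p = 0.741). The KO stage difference was −1.03 ± 0.51 (SE), with an interval from −2.10 to 0.03.

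Gal3st1 encodes the sulfotransferase that makes sulfatide from galactosylceramide. It stood at 4.90, 5.65, 5.38 and 6.63 in WT and 5.02, 5.79 and 4.28 in KO at 6 weeks, and at 5.31, 4.81, 5.57, 4.97 and 5.12 in WT and between 4.27 and 4.97 with a median of 4.92 in KO at 12 weeks. The groups overlapped in all 4 comparisons. By gene values the largest difference was KO against WT at 6 weeks (−0.61 ± 0.36 (SE), adjusted p = 0.971). This value too depended on how probe sets were summarized. Singly they gave 0.10, −0.01, −0.03, −1.60 and −1.09 in that comparison, the last from the brightest.

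Aspa stood at 7.09, 6.88, 8.86 and 9.78 in WT and 8.49, 9.09 and 7.29 in KO at 6 weeks. At 12 weeks it stood at 5.44, 4.16, 6.61, 7.0 and 7.03 in WT and between 5.48 and 8.99 with a median of 7.27 in KO. WT replicates 1 and 2 of 12 weeks were the low arrays of their group, and the genotypes overlapped at both stages. KO and WT differed by 0.14 ± 0.80 (SE) at 6 weeks and by 1.30 ± 0.63 (SE) at 12 weeks, 2.45-fold higher, with an interval from −0.02 to 2.62 and adjusted p = 0.460. The WT stage difference was −2.10 ± 0.70 (SE), 4.30-fold lower, and that in KO −0.95 ± 0.74 (SE), and neither passed (adjusted p = 0.388 and 0.789).

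**Figure D3:**
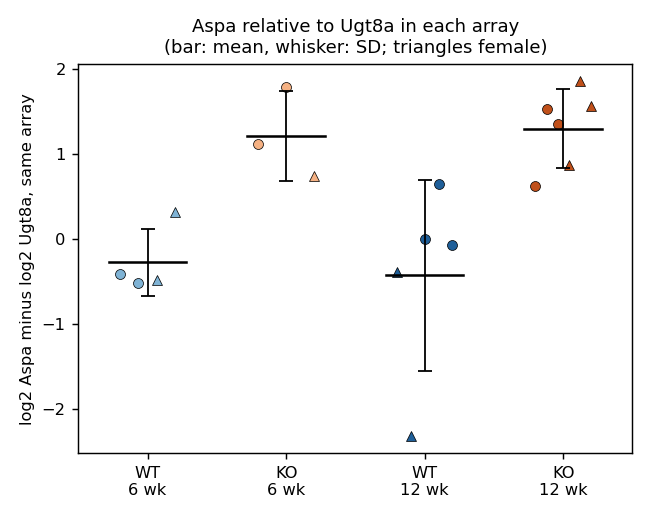
Log2 value of Aspa minus that of Ugt8a in the same array (y axis), for the 18 arrays by genotype and stage (circles male, triangles female; bar, mean; whisker, SD). At 6 weeks the 3 KO arrays lie above the 4 WT arrays, and at 12 weeks only WT replicate 4 reaches into the KO range.

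Aspa and Ugt8a had opposite signs between genotypes at 12 weeks, and their difference within each array was taken as a description, a pair picked after its values were seen. Log2 Aspa minus log2 Ugt8a was −0.42, −0.53, −0.48 and 0.31 in WT and 1.12, 1.79 and 0.74 in KO at 6 weeks. It was −0.39, −2.32, −0.01, 0.65 and −0.08 in WT and between 0.62 and 1.85 with a median of 1.44 in KO at 12 weeks. The means in WT and KO were −0.28 and 1.21 at 6 weeks and −0.43 and 1.30 at 12 weeks. The KO mean was thus higher at both stages, with overlap of the genotypes at 12 weeks. Of the 36 pairs among the 9 genes, 9 had genotypes without overlap at 6 weeks and 0 at 12 weeks. Pairs share genes, and the share over all gene pairs was not computed. The counts are therefore not read as a result about the 9 genes.

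The probe sets of a gene were compared singly. For the WT stage difference, Ugt8a (7 of 7 probe sets), Fa2h (10 of 10), Aspa (8 of 8), Elovl7 (8 of 8) and Cers2 (10 of 10) had all their probe sets below 0. Those of Elovl7 ran from −2.97 to −1.55 and those of Aspa from −2.35 to −1.47. Sptlc1 had 12 of 16 below 0, Sptlc2 10 of 13, Elovl1 9 of 11 and Gal3st1 3 of 5, on both sides of 0. For KO against WT at 12 weeks, 8 of 8 probe sets of Aspa (1.03 to 1.53) and 8 of 8 of Elovl7 (0.09 to 2.19) lay above 0, and 6 of 7 of Ugt8a lay below. At 6 weeks 10 of 10 of Fa2h, 8 of 8 of Elovl7 and 6 of 7 of Ugt8a lay below 0, and 7 of 8 of Aspa above. Probe sets of 1 gene read the same RNA on the same arrays, so their agreement is not repeated evidence of a group difference.

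**Figure D4:**
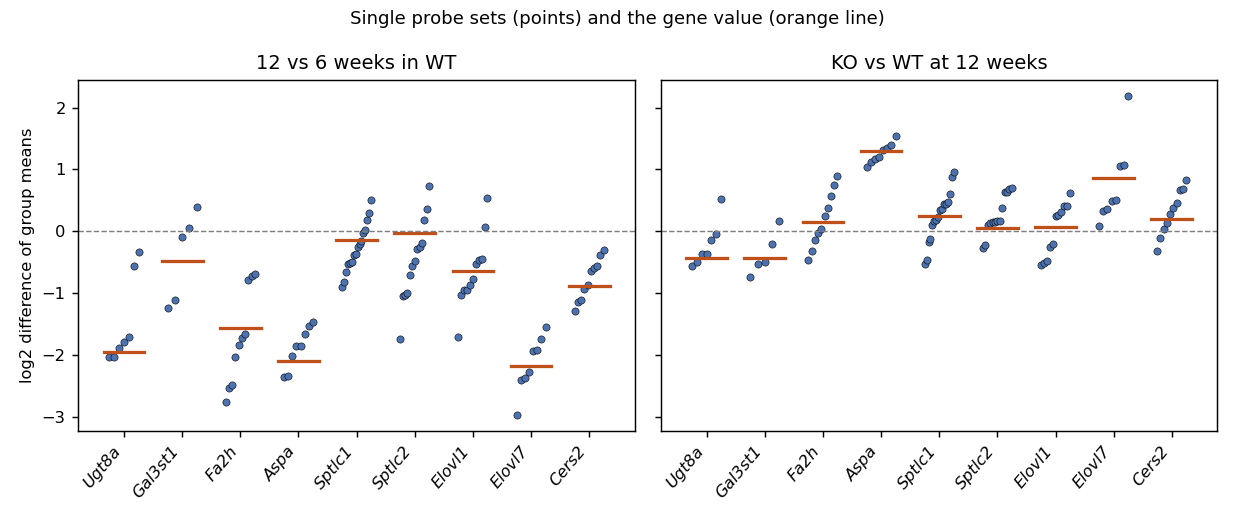
Log2 difference of group means for each single probe set (points) and for the gene value (orange line), for the 9 genes on the x axis, for stage in WT (left) and KO against WT at 12 weeks (right). All probe sets of Ugt8a, Fa2h, Aspa, Elovl7 and Cers2 lie below 0 for 12 against 6 weeks in WT, while those of Sptlc1 and Sptlc2 lie on both sides.

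The level of most of the 9 genes followed that of mature oligodendrocyte markers across the arrays. Pearson's r with the mean of the 11 named markers over 18 arrays was 0.950 for Fa2h, 0.887 for Elovl7, 0.863 for Ugt8a, 0.862 for Cers2 and 0.851 for Aspa. It was lower for Elovl1 (0.714), Gal3st1 (0.667) and Sptlc2 (0.461), and 0.0165 for Sptlc1. Spearman's rho was 0.928 for Fa2h, 0.866 for Elovl7, 0.835 for Ugt8a and −0.098 for Sptlc1. After group means were subtracted, r was 0.915 for Fa2h, 0.896 for Aspa, 0.878 for Elovl7 and 0.796 for Ugt8a. Without replicates 3 and 4 of WT at 6 weeks, the arrays with the highest marker level, r was 0.932 for Fa2h, 0.797 for Aspa, 0.781 for Elovl7, 0.730 for Cers2 and 0.727 for Ugt8a. It was 0.473 for Gal3st1, 0.470 for Elovl1, 0.371 for Sptlc2 and −0.245 for Sptlc1 without them. These points share RNA and array, and r is given as a description.

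**Figure D5:**
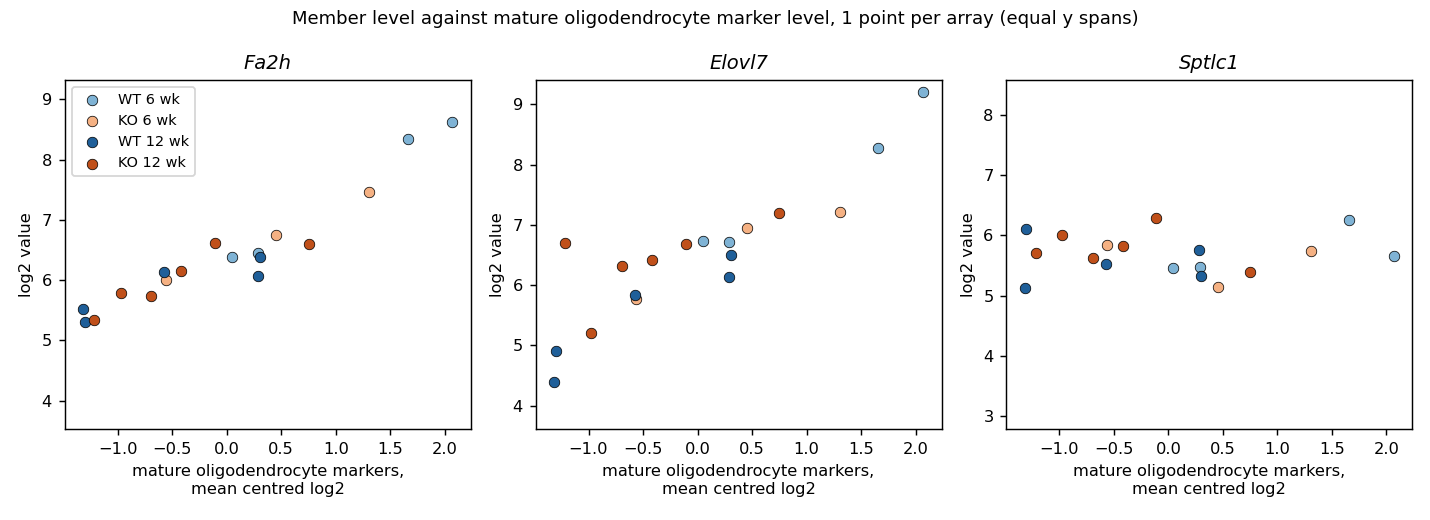
Log2 level of Fa2h, Elovl7 and Sptlc1 (y axes with equal spans) against the mean centred log2 value of the mature oligodendrocyte markers (x axis), 1 point for each of the 18 arrays, coloured by genotype and stage. Fa2h and Elovl7 are higher where the markers are higher and Sptlc1 is level, and replicates 3 and 4 of WT at 6 weeks lie at the top of the marker axis.

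The same markers were read in each comparison, and none passed in any. All 11 had a lower mean at 12 weeks in WT (median log2 difference −1.65) and in KO (−0.86), where 48.8% and 47.8% of all genes did. By unadjusted p under 0.05, 9 of the 11 were lower in WT and 0 in KO, where 4.51% and 2.78% of all genes were. Between genotypes their median difference was −0.56 at 6 weeks, with all 11 lower in KO, and 0.31 at 12 weeks. At 12 weeks 3 of the 11 were lower in KO (Mbp, −0.78, Myrf, −0.57, and Cnp, −0.32). Of all genes, 50.4% and 47.6% were lower in KO at 6 and 12 weeks. Array means of the markers ran from 8.48 to 10.5 in WT and 7.88 to 9.75 in KO at 6 weeks, and from 7.12 to 8.74 and 7.22 to 9.19 at 12 weeks. In a fit with the marker level as a covariate, the WT stage differences were −0.75 for Ugt8a, −0.74 for Elovl7, −0.34 for Fa2h, −0.10 for Aspa and −0.08 for Cers2, with a median over the 9 genes of −0.10. In the same fit KO against WT at 12 weeks was 1.19 ± 0.30 (SE) for Aspa (adjusted p = 0.0841) and 0.79 ± 0.25 (SE) for Elovl7 (adjusted p = 0.184), and neither passed. At 6 weeks the values of KO against WT in that fit were 0.94 for Aspa (adjusted p = 0.650), −0.87 for Ugt8a (adjusted p = 0.655) and −0.51 for Elovl7 (adjusted p = 0.818), against 0.14, −1.35 and −1.08 without the covariate. The marker mean and these genes were read from the same RNA, so the covariate takes away a shared difference whatever its source.

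Markers of other cell types were read beside these. Microglia and macrophage markers had a median difference of 1.05 in KO against WT at 6 weeks, where 0 of 10 passed, and 1.01 at 12 weeks, where 2 of 10 passed (Itgam, 1.76, and Laptm5, 1.54). At each stage 1 of the 10 was lower in KO (Ptprc, −0.57 and −0.31). Astrocyte markers had a median of 0.47 at both stages, with 0 of 7 passing at 6 weeks and 1 of 7 at 12 weeks. Of these, 1 of 7 was lower in KO at 6 weeks (Aqp4, −0.41) and 0 of 7 at 12 weeks (Aqp4, 1.02). In those comparisons 0.043% and 0.43% of all genes passed. No marker of the next 3 lists passed in the comparisons given. Newly formed oligodendrocyte markers had medians of −0.54 and −0.56 in KO against WT at 6 and 12 weeks, with 3 of 5 below 0 at each stage. Neuron markers had medians of 0.47 in WT and 0.73 in KO at 12 against 6 weeks, with 6 and 7 of 7 above 0. Choroid plexus and ependyma markers had medians of −1.41 at 12 against 6 weeks in WT and 0.98 in KO against WT at 12 weeks, with array means from 5.73 to 9.20 in WT at 6 weeks, 5.12 to 6.70 in WT at 12 weeks and 5.83 to 7.94 in KO at 12 weeks. Their part in the values of the 9 genes was not tested.

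Sex, taken from Xist and genes of the Y chromosome, divided the arrays unevenly. WT at 6 weeks held 2 females (replicates 3 and 4, the high arrays) and 2 males. Within males the median difference of the 9 genes for stage in WT was −0.05 (3 against 2 arrays), and within females −1.93 (2 against 2). Ugt8a differed by −0.76 and −3.24, Elovl7 by −0.57 and −4.08, Aspa by −0.10 and −4.52, and Fa2h by −0.22 and −3.07 in males and females. In the same order, Cers2 differed by 0.06 and −1.93 and Elovl1 by 0.38 and −1.68. Sptlc2 differed by 0.32 and −0.41, Sptlc1 by 0.07 and −0.34, and Gal3st1 by −0.05 and −0.95. Sex and these high arrays cannot be told apart in WT at 6 weeks. In KO at 6 weeks the mean centred log2 value of the 9 genes was highest in a male, replicate 2 (0.82). It was lowest there in the only female, replicate 3 (−0.32). For KO against WT at 6 weeks, males gave a median of 0.42 and females of −1.72, where 1 KO array stood against 2 of WT, and Ugt8a was −0.11 and −2.85. In KO the stage median was −0.94 for males and 0.16 for females.

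At 12 weeks the arrays came in 2 runs of consecutive deposition, each with both genotypes, and whether the runs are batches is not known. The first run held female WT and male KO arrays only, and the second held male WT and female KO arrays only. Each difference within a run is therefore also one between the sexes, and each difference within a sex also one between the runs, so genotype cannot be told apart from sex within a run or from run within a sex. For KO against WT the median of the 9 genes was 0.28 in the first run and 0.17 in the second, −0.03 in males and 0.45 in females. Aspa was higher in KO by 2.66 and 0.35 in the runs and by 0.58 and 2.42 in males and females. Elovl7 was higher by 1.82 and 0.21 and by 0.31 and 1.72. Both values were above 0 in each run and each sex, with sizes that differed widely, and WT replicates 1 and 2 were the female and low arrays of the first run.

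The 5 genes outside the set whose values over the 18 arrays were most like the mean of the 9 were Trim59 (Pearson's r 0.966, Spearman's rho 0.959), Slc12a2 (0.948 and 0.903), Pde8a (0.948 and 0.901), Myo1d (0.943 and 0.926) and Ccp110 (0.940 and 0.864). After group means were subtracted, r was between 0.905 for Ccp110 and 0.950 for Trim59.

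Other genes of sphingolipid metabolism were read from 6 lists with 55 genes, of which 53 were named on the array and 51 tested, and 0 passed in any comparison. For stage in WT, 36 of the 51 lay below 0, where 48.8% of all genes did. By unadjusted p under 0.05, 7 of the 51 were lower and 1 was higher, where 4.51% and 3.96% of all genes were. The 7 included the glycolipid transfer protein gene Gltp (−1.05), the sphingomyelin synthase Sgms2 (−1.15), the dihydroceramide desaturase Degs1 (−0.62), the elongase Elovl5 (−0.53) and the saposin precursor Psap (−0.46). The gene higher at 12 weeks was Smpd3, a neutral sphingomyelinase (0.60). By list, median differences in WT were 0.01 for first steps and their regulators, −0.28 for other ceramide synthases, −0.17 for other elongation enzymes, −0.25 for other head groups and ceramide transfer and −0.28 for breakdown, against −0.88 for the 9 genes.

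For KO against WT at 12 weeks, 13 of the 51 lay below 0, where 47.6% of all genes did. By unadjusted p under 0.05, 4 were higher and 1 was lower, where 6.87% and 4.23% of all genes were. They were Sgpp1, a phosphatase of sphingosine 1-phosphate (0.73, adjusted p = 0.075), the elongation dehydratases Hacd2 (0.50) and Hacd3 (0.51), the acid ceramidase Asah1 (0.55) and, lower, the elongase Elovl6 (−0.51). Galc, which removes the galactose that UGT8A adds, was at 0.45 (adjusted p = 0.477). At 6 weeks 28 of the 51 lay below 0, where 50.4% of all genes did. Ormdl2, a regulator of serine palmitoyltransferase (1.06), Elovl2 (0.91), the ceramide kinase Cerk (0.69) and, lower, Elovl6 (−0.93) had an unadjusted p under 0.05. Of all genes, 3.26% were higher and 2.17% lower at that level. For stage in KO, 26 of the 51 lay below 0, where 47.8% of all genes did. By unadjusted p under 0.05, 3 were higher and 1 was lower, where 4.70% and 2.78% of all genes were. The higher ones were Degs2 (0.69), Hacd1 (0.59) and Smpd3 (0.53), and the lower one was Cerk (−0.54). Nat8l, which makes the N-acetylaspartate that aspartoacylase splits, differed by 0.10 and −0.30 between genotypes at 6 and 12 weeks and by 0.29 and −0.11 between stages in WT and KO.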

How the data were processed

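The authors deposited a table of log2 values for 241576 probe sets on 18 one-colour arrays of amplified, biotin-labelled RNA, per the labels' protocols. The authors' background correction, normalization and summary steps are not given in the sources used here. Medians of the arrays differed by 0.148 at most, so values were used as deposited. Array background is not in the table, and how far a gene stood above it is not stated. Probe sets were named from the platform annotation (212097 with 1 symbol, 4475 with several, 25004 with none), and 2742 symbols were updated through RefSeq (GRCm38.p6). The 20% of genes with the lowest mean (log2 of 3.41 or less) were left out.

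One limma model (3.58.1, R 4.3.3) with 4 group means, 14 residual and 5.6 prior degrees of freedom gave 2-sided tests, adjusted by Benjamini-Hochberg over 16281 genes, with a threshold of 0.05 ("passed"). The number of arrays limits precision. Steps were tested on simulated data. The members, lists and tests were chosen with earlier results of these data known. Named were the 9 genes, Trem2, the 5 most similar genes, and up to 4 genes with the smallest p of each pathway list. Within-sex and within-run values have no test. Alternatives covered filter, normalization, gene value, spread estimate, array weights, arrays in the fit, replicate block, run, sex, marker covariate, threshold and leaving out arrays. Tables used pandas 2.3.3 and numpy 2.4.6 under Python 3.11.15, and plots matplotlib 3.10.9.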

Additional observations from a re-analysis of the deposited data

How the results depend on the processing

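No gene of the 9 passed in any of 33 settings, 15 other settings and 18 with 1 array left out. The smallest adjusted p was 0.0841 (Aspa, KO against WT at 12 weeks, marker covariate). The replicate block likewise gave 0 of the 9 and medians of −0.12, 0.15, −1.03, −0.81 and 0.38 for KO against WT at 6 and 12 weeks, stage in WT, stage in KO and the interaction. Deviations from group means of same-numbered WT and KO arrays correlated between −0.36 and 0.24 at 6 weeks and between 0.02 and 0.10 at 12 weeks. At 6 weeks only replicate 1 of WT correlated best with its own number. At 12 weeks replicates 1, 2, 4 and 5 of WT did so, and replicate 3 did not. The match was not seen at both stages, so the numbers were not taken as pairs in the main fit. Of 40 results for single genes, 17 changed sign in 1 or more settings, and the cause was not tested. The 40 held the interaction only for Ugt8a, Fa2h, Aspa and Elovl7. Outside them, the interaction was below 0 with the marker covariate for Gal3st1 (−0.072), Sptlc2 (−0.11) and Elovl1 (−0.32). The median for stage in WT, −0.88, was −0.10 with the marker covariate, and that for stage in KO, −0.49, was 0.0085. Leaving out 1 array moved the medians between −0.54 and −0.02, 0.04 and 0.22, −1.12 and −0.57, −0.76 and −0.13, and 0.27 and 0.75, in the same order. Counts over all genes, 7, 70, 3, 1 and 0, ran between 0 and 10, 21 and 233, 0 and 7, 0 and 3, and 0 in the other settings, and between 0 and 11, 15 and 126, 1 and 6, 1 and 5, and 0 with 1 array left out. With the threshold at 0.1 they were 13, 153, 9, 1 and 0.

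Among the 40 results for single genes, signs turned as follows. For KO against WT at 6 weeks, Sptlc1 was 0.048 with the mean of probe sets. Elovl1 was −0.11 with that mean, −0.60 with the brightest probe set, −0.00145 with array weights and −0.12 without the pair of 6-week arrays with the lowest weights (replicate 4 of WT, replicate 2 of KO). Sptlc2 was 0.14 and Cers2 0.13 with the covariate. At 12 weeks, Sptlc1 was −0.46 with the brightest probe set and Elovl1 −0.029 with the replicate block. For stage in WT, Sptlc2 was 0.0098 with quantile normalization, 0.00354 with median centring, 0.078 with array weights, 0.086 without that pair and 0.41 with the covariate. Sptlc1 was 0.025 with the brightest probe set, and Gal3st1 was 0.081 and Elovl1 0.14 with the covariate. For stage in KO, Sptlc1 was −0.074 and Sptlc2 −0.12 with the mean of probe sets, Sptlc1 −0.35 with the brightest, and Sptlc2 −0.026 with the block. Elovl7 was 0.035 with array weights, 0.057 without that pair and 0.56 with the covariate, Gal3st1 was 0.077 without that pair and 0.0085 with the covariate, and Aspa was 0.15 with the covariate.

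With 1 array left out, values crossed 0 at 6 weeks for Aspa (−0.28 to 0.68), Elovl1 (−0.36 to 0.45), Sptlc1 (−0.27 to 0.081), Sptlc2 (−0.26 to 0.14) and Cers2 (−0.54 to 0.12), and at 12 weeks for Sptlc2 (−0.070 to 0.19) and Elovl1 (−0.029 to 0.22). They crossed 0 for stage in WT for Sptlc1 (−0.28 to 0.039) and Sptlc2 (−0.17 to 0.090), and in KO for Gal3st1 (−0.67 to 0.077), Elovl7 (−0.66 to 0.057) and Sptlc2 (−0.12 to 0.28). The stage difference in WT kept its direction for Ugt8a (−2.29 to −1.60), Fa2h (−1.93 to −1.18), Aspa (−2.53 to −1.56) and Elovl7 (−2.51 to −1.68). It also did so for Cers2 (−1.12 to −0.57), Elovl1 (−1.01 to −0.23) and Gal3st1 (−0.73 to −0.15). Each of these fits kept replicate 3 or replicate 4 of WT at 6 weeks. They therefore cannot show the stage difference without both of those high arrays. Array background is not in the table used here, so low values such as those of Gal3st1 could not be set against it.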
